A study of Mus musculus with 12 samples.

Results

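The genes described here are the homeobox and paired-box lineage factors outside the Hox clusters, taken from the mouse genes named by a number within the Pax, Lhx, Dlx, Msx, Irx, Gsx, Emx or sine oculis homeobox families, or by a pair of numbers within the Nkx family. They comprise 54 symbols of the gene list, and 53 of them had a probe on the array, among 32451 genes or accessions with a probe. The rule used gene names alone and no measured value, but it was chosen with earlier results of these data known. RNA was measured in E14 mouse embryonic stem (ES) cells, a line grown here in serum and LIF on gelatin without feeders, 48 hr after transient transfection with esiRNA (short RNAs cut by an enzyme from a long double-stranded RNA) against 1 transcript. There were 6 groups of 2 arrays each. EGFP KD, which targets a transcript that mice do not have, was the control. Chd4 KD targets the nucleosome-remodelling ATPase of the NuRD complex, and Mbd2 KD and Mbd3 KD target methyl-CpG-binding domain proteins found in NuRD. Dnmt1 KD targets the maintenance DNA methyltransferase, and Tet1 KD an enzyme that oxidizes methylated cytosine. Each sample was 1 transfected dish, and all groups, the control included, received esiRNA in a lipid reagent. The study's text calls the replicates biological, while the labels only number them, so what separates them beyond the transfected dish is not given and the p-values measure the spread between these arrays.

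Homeodomain and paired-domain proteins bind DNA and set regional and cell identity in the embryo, for example in the eye, forebrain, heart, muscle, kidney and pancreas. In ES cells many of their genes are held at low levels by Polycomb repression and have CpG-rich promoters. They are a usual readout for premature lineage expression when a chromatin regulator is removed.

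Several facts about the arrays touch every value that follows. The arrays lay on 3 slides of 4. Slide 1 held EGFP KD replicate 1 with an array each of Dnmt1 KD, Mbd3 KD and Mbd2 KD, and slide 2 held EGFP KD replicate 2, both Tet1 KD arrays and Chd4 KD replicate 1. Slide 3 held no control. The targeted mRNA was low in both arrays of Dnmt1 KD (-1.63 and -2.34 on the log2 scale against the EGFP KD mean), of Mbd3 KD (-3.07 and -2.85) and of Chd4 KD (-1.54 and -1.01). For Tet1, the probe used here read -1.81 on Tet1 KD replicate 2 but -0.02 where the label is Tet1 KD replicate 1, and it read -1.78 where the label is Mbd2 KD replicate 1. For Mbd2, 1 of 2 probes read -1.77 on Mbd2 KD replicate 2 but -0.23 under the label Mbd2 KD replicate 1, and it read -1.74 under the label Tet1 KD replicate 1. The other Mbd2 probe, brighter and therefore the one used in the fits, read -0.07 on both Mbd2 KD arrays, so a lower Mbd2 mRNA was seen with only 1 of its probes. These labels were kept as given, so every direction stated for Tet1 KD or Mbd2 KD rests on labels that the targeted mRNA goes against. Of 12 ES cell markers, 11 were well above background on both arrays of every group, the exception being Nanog, whose matched probe was not so on both arrays of Mbd3 KD or of Chd4 KD.

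Because the study concerns proteins that write, oxidize or read methylated CpG, the start regions of these genes were examined for the CG dinucleotide. RefSeq windows of 300 bases (250 before and 50 after the annotated start, GRCm38.p6) were at hand for 41 of the 53 factors, as 49 windows. Every one held at least 1 CG, as did 94.6% of all 32851 windows. The median was 19 CG per window (quartiles 15 and 28, range 4 to 40) against 7 in all windows (quartiles 3 and 20), and 47 of 49 lay at or above that general median. CG reads the same on both strands, so 1 count serves for both. Printed here are the windows of Irx3 and Six4, which were called in Chd4 KD, and those of Lhx8 and Nkx6-1, which hold the fewest and the most CG among the factors; capitals mark each CG. The Irx3 window is chr8:91801605-91801904, the Six4 window is chr12:73113196-73113495, the Lhx8 window is chr3:154330511-154330810 and the Nkx6-1 window is chr5:101664662-101664961, all on the minus strand of GRCm38.p6.
Irx3: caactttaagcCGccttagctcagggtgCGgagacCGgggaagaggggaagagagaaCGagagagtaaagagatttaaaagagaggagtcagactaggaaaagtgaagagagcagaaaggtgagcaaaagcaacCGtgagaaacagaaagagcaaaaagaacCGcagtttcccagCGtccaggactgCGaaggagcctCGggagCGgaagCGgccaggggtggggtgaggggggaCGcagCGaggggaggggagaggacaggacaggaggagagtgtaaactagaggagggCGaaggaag
Six4: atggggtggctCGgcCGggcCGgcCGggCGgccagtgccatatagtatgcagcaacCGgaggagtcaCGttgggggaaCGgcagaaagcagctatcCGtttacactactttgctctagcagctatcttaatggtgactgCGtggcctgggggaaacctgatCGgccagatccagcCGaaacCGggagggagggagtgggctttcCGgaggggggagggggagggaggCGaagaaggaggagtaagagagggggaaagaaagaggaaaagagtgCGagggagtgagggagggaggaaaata
Lhx8: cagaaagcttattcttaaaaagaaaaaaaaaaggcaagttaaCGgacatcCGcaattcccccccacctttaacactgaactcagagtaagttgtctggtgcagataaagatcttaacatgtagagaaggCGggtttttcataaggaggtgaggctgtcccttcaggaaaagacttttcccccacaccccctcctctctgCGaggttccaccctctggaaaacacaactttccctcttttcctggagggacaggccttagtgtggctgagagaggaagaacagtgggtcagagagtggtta
Nkx6-1: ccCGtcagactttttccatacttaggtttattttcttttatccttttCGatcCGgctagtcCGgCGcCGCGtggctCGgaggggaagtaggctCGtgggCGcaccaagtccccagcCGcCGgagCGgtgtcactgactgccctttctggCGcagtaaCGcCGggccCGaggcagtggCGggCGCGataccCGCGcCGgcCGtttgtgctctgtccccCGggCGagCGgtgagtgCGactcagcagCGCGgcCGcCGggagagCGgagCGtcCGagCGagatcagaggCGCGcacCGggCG
The window of Irx3 held 14 CG and that of Six4 held 16, both under the median of the factors, while the Lhx8 window held 4 and the Nkx6-1 window 40. At least as many CG as in Nkx6-1 were found in 3.91% of all windows, and at least as many as in Irx3 in 36.3%. A count of CG describes sequence and says nothing of whether those cytosines were methylated in these cells.

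**Figure D1:**
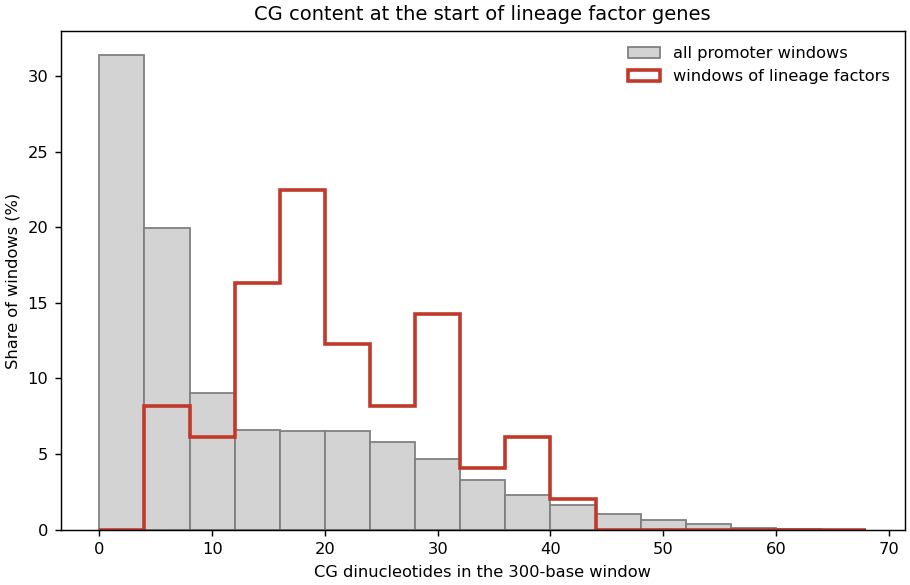
Distribution of CG dinucleotides (x axis, count per 300-base window) as a share of windows (y axis, %) for all RefSeq promoter windows (grey bars) and for the 49 windows of the lineage factors (red outline). The lineage factor windows centre on a median of 19, above the median of 7 over all windows.

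Most of the lineage factors gave a measurable signal. Signal is given throughout as log2 of the processed intensity divided by the 75th percentile of its array, raised to a floor of -4.86 where it was lower. It is compared only within a probe. A factor was tested when at least 1 of the 6 groups had its probe well above background on both arrays, and 50 of 53 passed. The exceptions were Irx5, Nkx2-1 (a thyroid, lung and ventral forebrain factor) and Dlx1 (a forebrain interneuron factor), each at the floor on all 12 arrays. Of the 50 tested, 35 were well above background on every array. A total of 14 were at the floor on at least 1 array, and Lhx5 and Six6 were there on all 12, so their differences of 0 come from the floor. No array saturated a factor's probe. In bulk RNA, fewer cells that express a gene and less RNA per cell cannot be told apart.

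Chd4 KD changed 3 of the 50 factors at an adjusted p under 0.05 in limma, 2 lower and 1 higher. That is 6% of the factors, where 3.17% of all genes tested were called, 1.22% lower and 1.96% higher. The factors that fell were Nkx6-3 and Six4, and the factor called higher was Irx3. The other KDs called none against EGFP KD. The median log2 fold change of the factors in Chd4 KD was 0.02, beside 0 for all genes. With 1 array left out at a time, between 1 and 3 factors were called in Chd4 KD. Nkx6-3 remained called each time. It was the 1 call left when EGFP KD replicate 1, Chd4 KD replicate 2, or either array of Dnmt1 KD or Mbd3 KD was omitted.

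**Figure D2:**
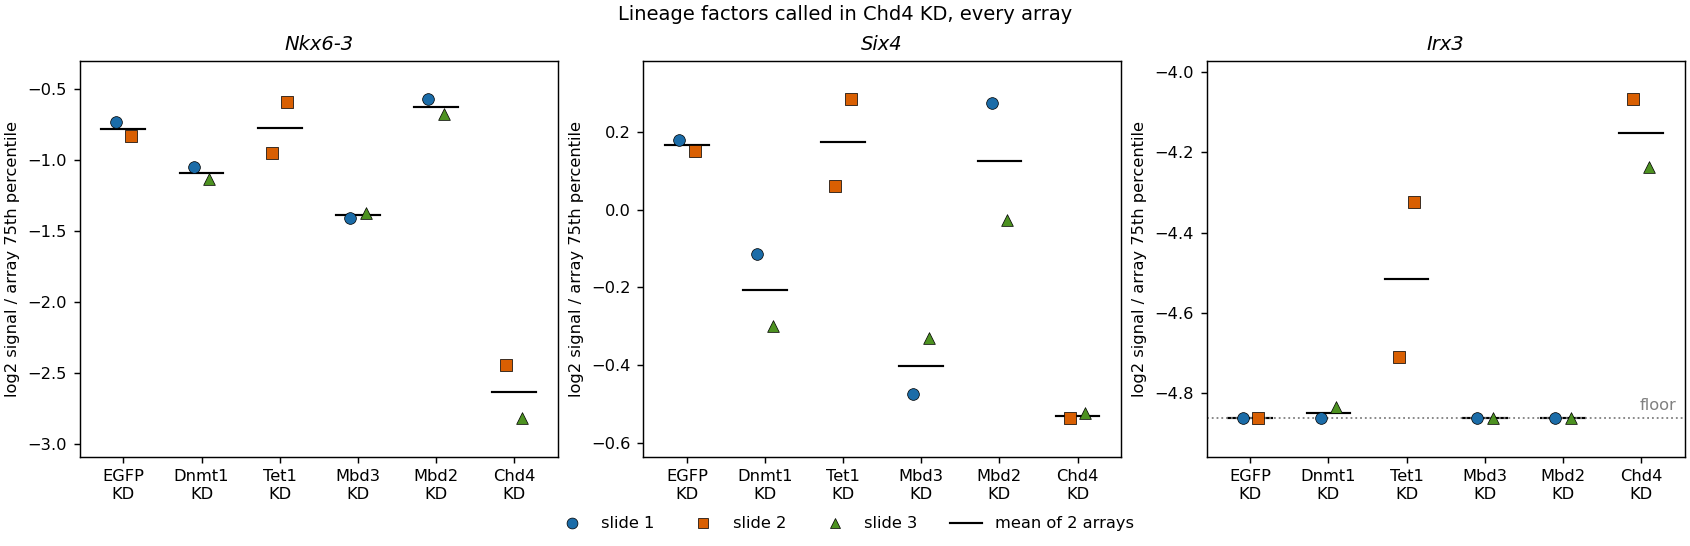
Log2 signal (y axis, relative to the 75th percentile of the array) of Nkx6-3, Six4 and Irx3 on every array of the 6 groups (x axis); point shape and colour give the slide and bars give the mean of 2 arrays. Both Chd4 KD arrays lie below all others for Nkx6-3 and Six4 and above all others for Irx3, whose EGFP KD arrays sit at the floor of -4.86.

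Nkx6-3, a homeodomain factor of the gastric antrum and hindbrain, showed the largest difference among the factors. Its log2 signal was -0.74 and -0.84 in EGFP KD and -2.45 and -2.82 in Chd4 KD. Mbd3 KD gave -1.41 and -1.38, Dnmt1 KD -1.05 and -1.13, the arrays labelled Tet1 KD -0.96 and -0.59, and those labelled Mbd2 KD -0.58 and -0.68. The Chd4 KD arrays were the lowest of the 12, the Mbd3 KD arrays came next and the Dnmt1 KD arrays followed, each pair apart from the next. Against EGFP KD, Nkx6-3 fell by 1.85 on the log2 scale in Chd4 KD (SE 0.16, 3.60-fold lower, adjusted p = 0.0023 in limma). It differed by -0.61 in Mbd3 KD (SE 0.16, adjusted p = 0.209 in limma), which did not pass. The difference between these groups was itself called, with Nkx6-3 lower in Chd4 KD than in Mbd3 KD by a log2 difference of -1.24 (SE 0.16, adjusted p = 0.017 in limma). Of the 50 factors Nkx6-3 was the only one called in that comparison, where 1.46% of all genes were. Another 3 factors reached an unadjusted p under 0.05 there (Nkx6-2, Six2 and Irx3), making 4 of 50 beside 10% of all genes. Within slide 2, Chd4 KD replicate 1 lay at -1.61 relative to EGFP KD replicate 2, and within slide 3, Chd4 KD replicate 2 lay at -1.45 relative to Mbd3 KD replicate 2. Of 26 alternatives, 9 lost the call against Mbd3 KD, and a fixed slide block was among those 9 (-1.28, adjusted p = 0.052 in limma). A second Nkx6-3 probe gave -1.01 in Chd4 KD (SE 0.49, adjusted p = 0.489 in limma) and -0.10 in Mbd3 KD, so only 1 of the probes carried the call.

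The other Nkx6 genes did not share this size of difference. Nkx6-2, a factor of oligodendrocytes and ventral spinal cord, was -2.34 and -2.17 in EGFP KD and -2.69 and -3.19 in Chd4 KD. Its 2 Chd4 KD arrays were the lowest of the 12. The log2 fold change was -0.69 (SE 0.16, adjusted p = 0.083 in limma), short of the threshold. Nkx6-1, a pancreatic beta cell and motor neuron factor, was 0.87 above EGFP KD with an SE of 0.78, and 93.1% of its variance lay between slides. Nkx6-2 is named after its values were seen.

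Six4, whose protein acts with Eya cofactors in muscle, kidney and sensory placode development, was also called lower in Chd4 KD. Its log2 signal was 0.18 and 0.15 in EGFP KD, -0.54 and -0.52 in Chd4 KD and -0.48 and -0.33 in Mbd3 KD. Dnmt1 KD gave -0.11 and -0.30, the arrays labelled Tet1 KD 0.06 and 0.28, and those labelled Mbd2 KD 0.28 and -0.03. The Chd4 KD pair was lowest and the Mbd3 KD pair next, and the Dnmt1 KD pair was also below both controls. Six4 fell by 0.70 in Chd4 KD (SE 0.13, 1.62-fold lower, adjusted p = 0.043 in limma). The differences in Mbd3 KD (-0.57, adjusted p = 0.155) and in Dnmt1 KD (-0.37, adjusted p = 0.935) did not pass in limma. In 18 of 26 alternatives Six4 was no longer called, including the replicate block (adjusted p = 0.054 in limma) and slide as a fixed block (-0.65, adjusted p = 0.088 in limma). The fold change itself lay between -0.71 and -0.68 with an array left out. Its neighbour Six6 was at the floor on all 12 arrays.

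Irx3, a patterning factor of the neural tube and heart, was called higher in Chd4 KD, but its control values were at the floor. Before the floor its scaled signal was 0.0164 and 0.0335 in EGFP KD and 0.0596 and 0.0531 in Chd4 KD, where the floor is 0.0344. Only EGFP KD replicate 2 of the control pair was well above background. The arrays labelled Tet1 KD gave 0.0382 and 0.0499, and all 4 arrays labelled Mbd3 KD or Mbd2 KD were not well above background. The difference of 0.71 (SE 0.13, adjusted p = 0.035 in limma) therefore takes its size and its error from the floor. Without the floor it was larger, 1.26, and not called (adjusted p = 0.622 in limma), and with an array left out it lay between 0.63 and 0.79. The call was absent in 14 of 25 alternatives, and the value changed sign to -0.51 with normexp background correction, where the median of all genes was itself at -0.29. Both Mbd3 KD arrays were at the floor and not well above background. The Chd4 KD mean of Irx3 was 1.64-fold above that floor, and the difference from Mbd3 KD was not called (adjusted p = 0.056 in limma). Of its neighbours, Irx5 was not tested and Irx6 differed by -0.34 (adjusted p = 0.730 in limma), with both Chd4 KD arrays (-1.90 and -1.50) below all 10 others.

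Another 2 factors had an unadjusted p under 0.05 in Chd4 KD. One was Nkx6-2 and the other was Six2, a nephron progenitor factor, named here after its values were seen. In total 5 of 50 factors passed this looser threshold, 10%, beside 12.8% of all genes. Six2 was -2.08 on the only EGFP KD array with a usable spot and -1.14 and -1.36 in Chd4 KD. The fit had 1 control array for this gene, because the spot on EGFP KD replicate 2 carried an outlier mark, and gave 0.83 (SE 0.19, adjusted p = 0.096 in limma). Both Chd4 KD arrays were above the other 9 that were measured. A second Six2 probe gave -0.07 in the same comparison, so the probes disagreed. Its neighbour Six3, an eye and forebrain factor, was -2.84 on EGFP KD replicate 1 and between -4.86 and -4.47 on the other 11 arrays. When EGFP KD replicate 2 was left out, that 1 control array was the whole control, and Six3 was then called in each of the 5 KDs.

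Msx1, a BMP target of limb, tooth and neural crest, had the largest positive fold change among the factors in Chd4 KD. It was -0.89 and -0.12 in EGFP KD and 0.52 and 1.32 in Chd4 KD, with no overlap. The spread between the 2 controls was wide, and the value of 1.43 (SE 0.66, adjusted p = 0.462 in limma) did not pass. A share of 77.0% of its variance lay between slides, all 4 arrays of slide 3 being above the 8 others, and within slide 2 Chd4 KD replicate 1 was 0.65 above its control. Pax4, a pancreatic endocrine factor, was -3.24 and -3.04 in EGFP KD and -3.32 and -4.86 in Chd4 KD, where the second array is at the floor. Its difference of -0.95 (SE 0.43, adjusted p = 0.434 in limma) thus came mainly from 1 array, and without Chd4 KD replicate 1 it was -1.72 and called. Nkx2-5, an early cardiac factor, was -3.22 and -2.55 in EGFP KD and -1.95 and -1.67 in Chd4 KD. The pairs did not overlap, and the fold change of 1.07 (SE 0.60, adjusted p = 0.595 in limma) did not pass. Over the factors measured on all 4 arrays of this comparison, 8 of 49 had both Chd4 KD arrays above both controls and 8 had both below, beside 19.3% and 18.6% of all genes.

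**Figure D3:**
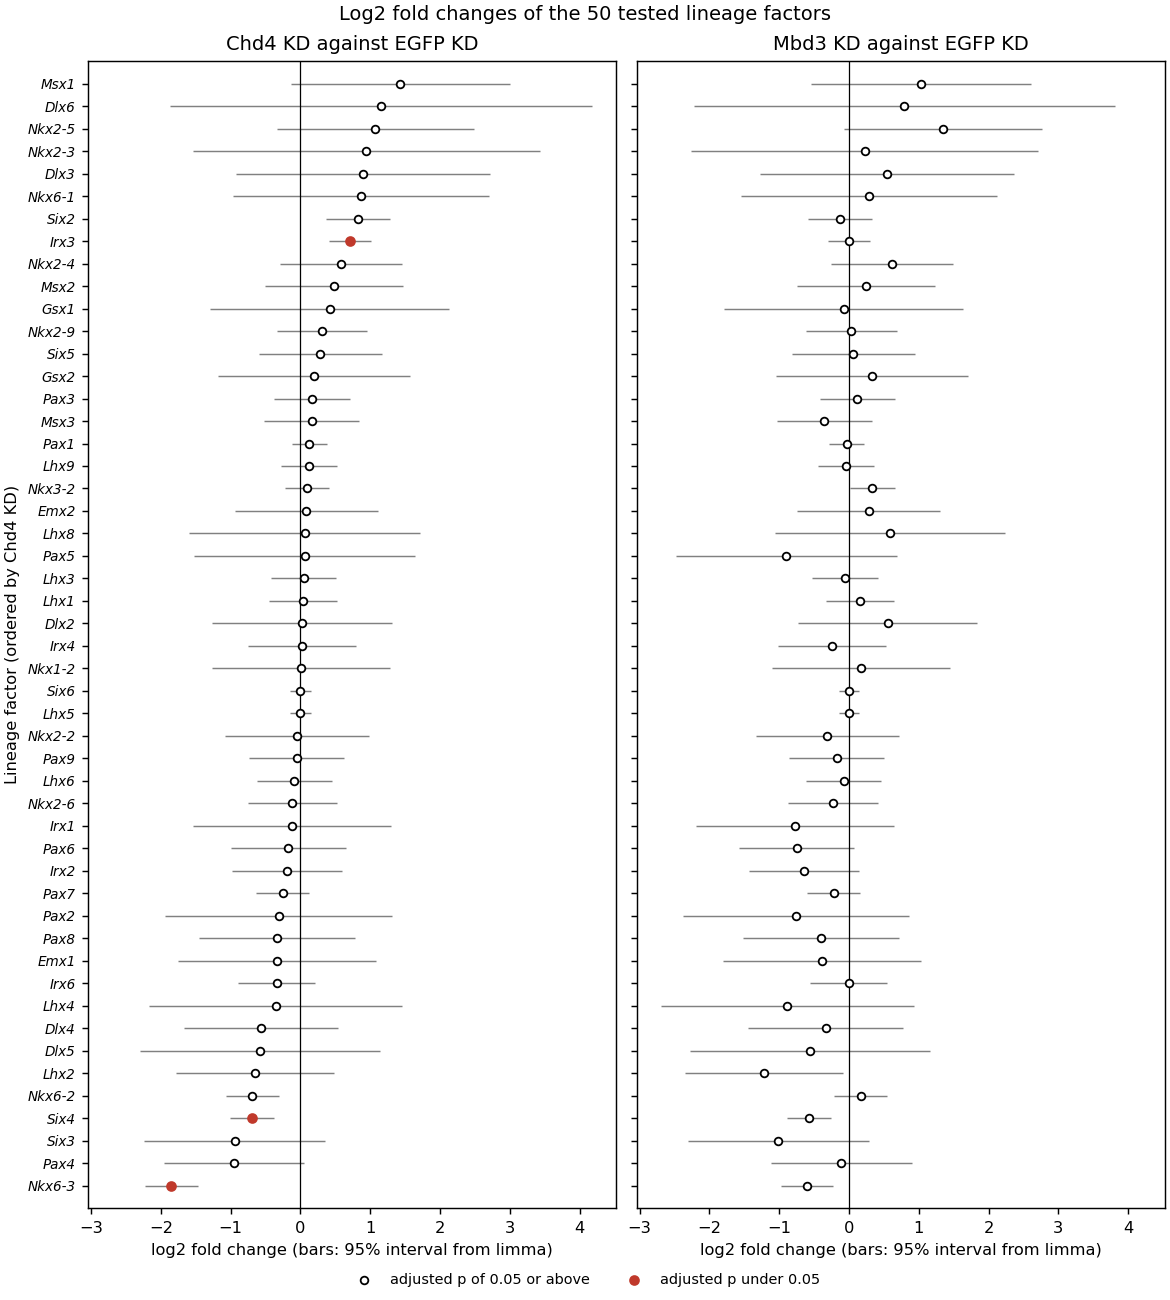
Log2 fold change (x axis, bars are 95% intervals from limma) of each of the 50 tested lineage factors (y axis, ordered by Chd4 KD) in Chd4 KD and in Mbd3 KD against the same EGFP KD arrays; filled red points were called. The calls are Nkx6-3 at -1.85, Six4 at -0.70 and Irx3 at 0.71 in Chd4 KD, and most other intervals cross 0.

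In Mbd3 KD none of the 50 factors was called in limma, where 0.771% of all genes were. An unadjusted p under 0.05 was reached by 4 factors, 8%, beside 9.67% of all genes. These were Six4, Nkx6-3, Lhx2 and Nkx3-2, the first 2 with the values given above. The median log2 fold change was -0.05 beside -0.03 for all genes, and both arrays were above both controls in 5 of 49 factors and below both in 6, where all genes gave 13% and 16.9%. Nkx2-5 was -0.94 and -2.14 in Mbd3 KD. The Mbd3 KD arrays were both above the controls but apart from each other, and the fold change of 1.34 had an SE of 0.60 (adjusted p = 0.555 in limma). Lhx2, a forebrain, eye and hair follicle factor, was -3.17 and -2.33 in EGFP KD and -4.53 and -3.41 in Mbd3 KD (-1.22, SE 0.48, adjusted p = 0.463 in limma). Msx1 was 0.20 and 0.84 in Mbd3 KD, above both controls by 1.03 in the mean (SE 0.66, adjusted p = 0.775 in limma). Both KDs share the EGFP KD arrays, so their values are set side by side only.

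Mbd3 KD and Mbd2 KD could also be compared with each other, without the controls. No factor was called in limma, where 0.503% of all genes were, and 3 factors reached an unadjusted p under 0.05 beside 6.89% of all genes. Nkx6-3 was lower in Mbd3 KD by a log2 difference of -0.76 (SE 0.16, adjusted p = 0.137 in limma) and Six4 gave -0.53 (SE 0.13, adjusted p = 0.231 in limma). The third was Pax6, the eye master regulator, at -0.82 (SE 0.35, adjusted p = 0.725 in limma). Its probe was well above background on only 1 of the 2 Mbd3 KD arrays, and Mbd3 KD replicate 2 read -4.77, near the floor. Relative to Mbd2 KD, Mbd3 KD lay at -0.24 within slide 1 and at -1.40 within slide 3. The fits of Mbd3 KD against Mbd2 KD use an array labelled Mbd2 KD whose targeted mRNA goes against its label.

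In Dnmt1 KD no factor was called in limma, as no gene was (0%), and 1 factor, Six4, reached an unadjusted p under 0.05, where 4.74% of all genes did. The median log2 fold change was 0 beside -0.01 for all genes, and 4 of 49 factors had both arrays above both controls and 5 had both below, beside 10.9% and 10% of all genes. Pax8, a thyroid and kidney factor, was -1.12 and -0.81 in EGFP KD and -1.32 and -2.64 in Dnmt1 KD (-1.02, SE 0.47, adjusted p = 0.944 in limma). Its low value was on slide 3, where Mbd3 KD replicate 2 (-1.78) and Chd4 KD replicate 2 (-1.67) were also below both controls. Pax6 was -3.766 and -3.215 in EGFP KD and -3.767 and -4.169 in Dnmt1 KD (-0.48, SE 0.35). Its low value was also on slide 3, and within slide 1 Dnmt1 KD replicate 1 lay at only -0.0012 relative to its control. Dlx2, a forebrain interneuron factor, was -4.86 and -4.74 in EGFP KD and -4.60 and -3.10 in Dnmt1 KD (0.96, SE 0.54). Its probe was well above background on only 1 of the 2 EGFP KD arrays. Both were at or near the floor, so the size of the difference depends on the floor. The higher Dnmt1 KD value was on slide 3. Pax8, Pax6 and Dlx2 did not pass, the adjusted p being 0.944 for each of the 3 in limma.

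The arrays labelled Tet1 KD had the largest median difference from EGFP KD among the KDs, and it was close to 0 within slide 2. No factor was called in limma, where 0% of all genes were, and 2 factors, Irx3 and Nkx3-2, reached an unadjusted p under 0.05 beside 2.84% of all genes. The median log2 fold change was 0.25 beside 0.09 for all genes. In 13 of 49 factors both arrays were above both controls and in 1 both were below, where the shares over all genes were 23.1% and 11.9%. Dlx6, a branchial arch and interneuron factor, was -2.16 and 0.62 in EGFP KD and 0.73 and 0.72 in Tet1 KD. Its fold change of 1.498 (SE 1.28) came from the EGFP KD array on slide 1, since the control on slide 2 stood close to both Tet1 KD arrays. The same held for Nkx6-1 (-3.21 and -1.71 against -1.44 and -1.69; 0.90, SE 0.78). Dlx3, an epidermal and placental factor, was 0.61 higher with an SE of 0.77. Emx2, a factor of cortex and urogenital tract (0.51, SE 0.43), and Gsx1, a ventral forebrain factor (0.69, SE 0.73), each overlapped the controls. The Gsx1 probe was well above background on only 1 of the 2 EGFP KD arrays. Within slide 2, which holds a control and both Tet1 KD arrays, the medians of the factors were 0.01 and 0.02, beside 0 and 0.01 for all genes.

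The arrays labelled Mbd2 KD gave no call in limma, where 0% of all genes were called, and no factor with an unadjusted p under 0.05, which 2.06% of all genes reached. The median log2 fold change was -0.01 beside 0 for all genes, with 3 of 49 factors above both controls on both arrays and 5 below, beside 10.8% and 11.9% of all genes. Pax4 was -3.87 and -3.94 in Mbd2 KD, below the EGFP KD pair by 0.76 in the mean (SE 0.43). Irx1, a patterning factor of lung and heart, was -1.61 and -1.15 in EGFP KD and -1.68 and -2.44 in Mbd2 KD (-0.68, SE 0.60). The low value was on slide 3, where Irx1 was -2.81 in Dnmt1 KD, -2.97 in Mbd3 KD and -1.67 in Chd4 KD. Within slide 1 the array labelled Mbd2 KD replicate 1 lay at -0.07 relative to its control. A share of 76.1% of the Irx1 variance lay between slides. Lhx9, a gonad and limb factor, was -1.77 and -1.67 in EGFP KD and -1.89 and -2.08 in Mbd2 KD (-0.27, SE 0.17). Its other probes gave 0.24 and -0.86 in this comparison. Pax4, Irx1 and Lhx9 each had an adjusted p of 1 in limma.

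**Figure D4:**
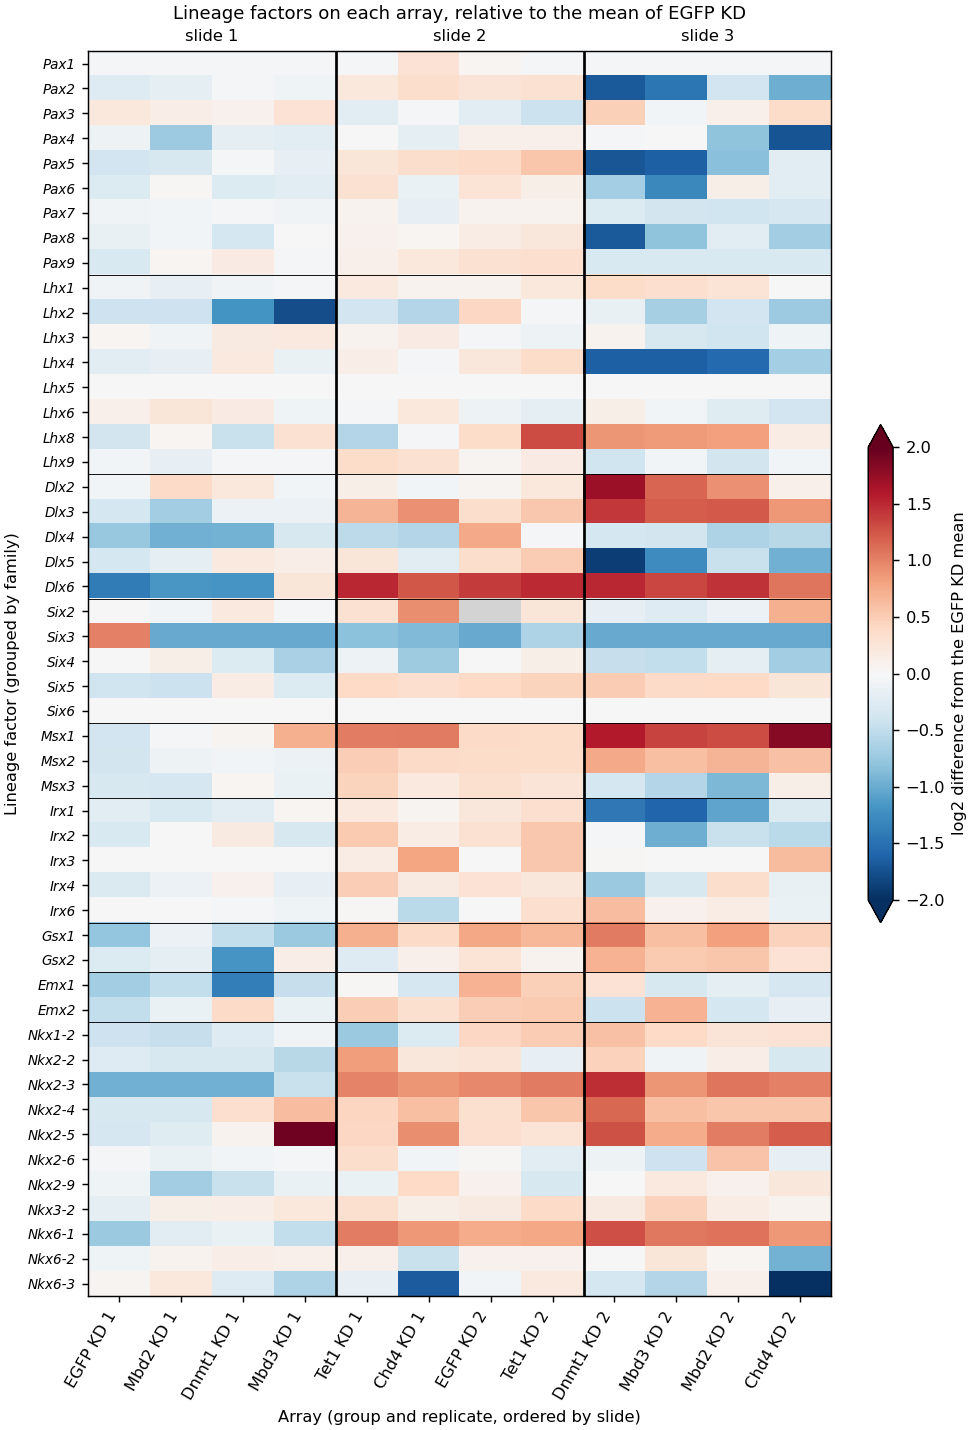
Log2 difference of each array (columns, ordered by slide) from the mean of EGFP KD for the 50 tested lineage factors (rows, grouped by family); red is higher, blue is lower, the scale ends at 2 in either direction and grey is a spot left out. Blocks of 1 colour follow the slides, as for Nkx2-3 and Nkx6-1 on slide 1, while Nkx6-3 is lowest on the 2 Chd4 KD arrays on different slides.

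A larger share of the variation among these factors lay between slides than between groups. Over 47 factors measured on all arrays and off the floor on at least 1, a median of 57.1% of the variance of the 12 arrays lay between slides, beside 46.9% for all genes, and 42.3% lay between groups, beside 44.8%. These shares overlap, as slides and groups are not balanced. Neither share was adjusted for its number of levels, and 6 groups take a larger share than 3 slides when nothing differs. The slide and group shares are therefore not on an equal footing. The slide share exceeded the group share in 29 of 47. In 9 of 49 factors, Dlx3, Dlx6, Emx1, Gsx1, Lhx1, Msx2, Nkx2-3, Nkx6-1 and Six5, all 4 arrays of slide 1 were below the 8 others, where 9.36% of all genes behaved so. In 4 of 49, Dlx5, Lhx4, Pax2 and Pax7, all 4 arrays of slide 3 were below the others, beside 9.04% of all genes. All 4 arrays of slide 2 were above the others in 6 (Irx1, Lhx9, Msx3, Pax2, Pax5 and Pax8), beside 8.68% of all genes, and all 4 of slide 3 in 3 (Gsx2, Msx1 and Msx2), beside 6.24%. Nkx2-3, a spleen and gut factor, had the highest slide share at 95.8%, with slide means of -4.73, -2.94 and -2.79.

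The factors called in Chd4 KD were at the other end of this range. The share between slides was 10.98% for Nkx6-3, 18.7% for Six4 and 29.1% for Irx3, and the shares between groups were 97.4%, 90.8% and 90.7%. Nkx6-2 was near them at 8.19% and 86.6%. In 4 of 49 factors (Irx6, Nkx6-2, Nkx6-3 and Six4) both Chd4 KD arrays were below all 10 others, beside 4.80% of all genes. In 2 (Irx3 and Nkx2-9) both were above, beside 5.44%. The group share includes the difference that led to the calls, so it adds no test of them.

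**Figure D5:**
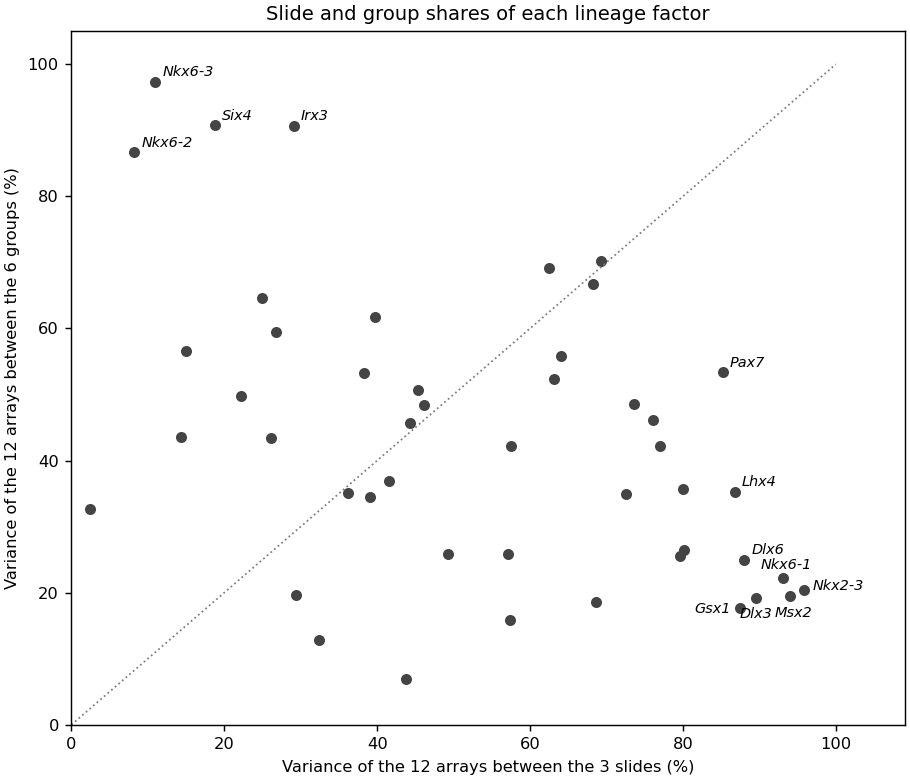
Share of the variance of the 12 arrays between the 3 slides (x axis, %) and between the 6 groups (y axis, %) for each lineage factor; the dotted line marks equal shares. Nkx6-3, Six4, Irx3 and Nkx6-2 lie at the upper left, and Nkx2-3, Msx2 and Nkx6-1 at the lower right with 93.1% or more between slides.

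Genes that work with or beside these factors were counted in the same fits. Of 30 cofactors and partners on the array (Pbx, Meis, Eya, Dach, Ldb, Lmo and Tle genes among them), 29 were tested and none was called in limma in any of the comparisons with EGFP KD. The counts for each list stand beside 3.17% of all genes called in Chd4 KD and 0.771% in Mbd3 KD. Of 45 tested homeobox genes of other non-Hox families, 2 were called higher and 3 lower in Chd4 KD. Those higher were Otx2 (1.84) and Phox2a (0.76, adjusted p = 0.047 in limma). Those lower were Gbx2 (-2.66), Hhex (-1.21) and Meox1 (-0.83). In Mbd3 KD Phox2a alone was called, higher by 1.09. Otx2 marks anterior neural and epiblast cells and Gbx2 marks posterior neural tissue and naive ES cells. Of 21 tested signalling genes known to set these factors, Bmp7 alone was called, higher in Chd4 KD by 1.30.

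Markers of some other cell types moved in the same arrays in which Nkx6-3 and Six4 were low. The summed scaled signal of 8 trophectoderm markers was 6.87 to 7.61 in EGFP KD, 11.5 to 11.7 in Mbd3 KD and 14.3 to 14.9 in Chd4 KD, with Krt18 and Tfap2c called in Chd4 KD while Cdx2 was not well above background on at least 1 Chd4 KD array. In Mbd3 KD Tfap2c was called higher (0.80) and Gata3 lower (-0.86), though Gata3 was not well above background on at least 1 Mbd3 KD array. The median log2 fold change of the 8 markers was 0.27 in Mbd3 KD and 0.35 in Chd4 KD. The sum of 7 tested fibroblast markers was 5.98 to 6.84 in EGFP KD, 10.6 to 10.8 in Mbd3 KD and 10.4 to 13.4 in Chd4 KD, with Col1a1 (2.50) and Thy1 (1.42) called in Chd4 KD and Postn not well above background. The median of the 7 was -0.23 in Mbd3 KD and -0.01 in Chd4 KD, while Thy1 was also called higher in Mbd3 KD (1.28). The sum of 10 primitive endoderm markers was 17.6 to 18.2 in EGFP KD, 12.97 to 13.7 in Mbd3 KD and 9.49 to 10.1 in Chd4 KD, with Lama1 lower (-1.50) and Afp higher (2.27) in Chd4 KD. The median of these 10 was -0.05 in Mbd3 KD and 0.31 in Chd4 KD, the latter opposite in sign to the change of the sum. Sums of ES cell markers were 193 to 214 in EGFP KD and 176 to 199 in Chd4 KD, which overlap. The sum of 9 neural ectoderm markers was 4.60 to 4.76 in EGFP KD, 5.64 to 5.86 in Mbd3 KD and 4.74 to 5.33 in Chd4 KD. For 8 mesoderm markers it was 2.94 to 4.13, 3.85 to 5.68 and 3.94 to 5.58 in the same order. In Chd4 KD both sums overlapped the control, and no marker of these lists was called in Mbd3 KD or Chd4 KD. The part of these differences in the values of the lineage factors was not tested.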

How the data were processed

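Total RNA of 12 samples was labelled with Cy3 and hybridised 1 sample per Agilent 4X44K array. The authors deposited Feature Extraction 10.7.1.1 output, in which the processed signal is a background-corrected intensity that is not normalized between arrays, and a table of log2 values, each KD relative to the control, with column medians from -0.0062 to 0.0037, which the authors' own name for it calls quantile; its other processing is not given in the sources used here. Its scale is narrower than that of the scanner values (Nkx6-3 in Chd4 KD is -0.19 there against -1.85). That table names 13 of the lineage factors and served as an alternative.

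Control spots (1377) and spots with an outlier mark were left out. The intensity was divided by the 75th percentile of its array, set to at least 0.0344 (the highest of the arrays' lowest scaled signals well above background), and log2 was taken. Spots of a probe were averaged, giving 39429 probes. Symbols came from a RefSeq gene list (GRCm38.p6) that named 71.4% of all spots and 98.4% of spots carrying a RefSeq mRNA accession, giving a symbol to 19399 of the 29848 genes tested. Genes with several probes were represented by the brightest on average. Of the lineage factors, 40 had 1 probe, 10 had 2 and 3 had 3.

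All 12 arrays entered 1 limma fit with a mean per group (limma 3.58.1, R 4.3.3). Comparisons were each KD against the control, Chd4 KD against Mbd3 KD, and Mbd3 KD against Mbd2 KD. A gene was called at p under 0.05 after Benjamini-Hochberg adjustment over all genes of that comparison. The precision is limited by the number of arrays. The limma step alone was tested on simulated data of 29496 genes, drawn with independent spread per array and no slide differences. In the KDs against EGFP KD it recovered between 13% and 20% of changes of 1 log2 unit. Of changes of 2 it recovered between 56% and 66%, with 0 in the wrong direction. Between 1 and 6 unchanged genes were called per comparison. How slide differences would alter these shares was not tested.

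Described with values are factors called in a comparison, the cluster neighbours of these, and the factor with the lowest p of each family. Also described are the 3 with the largest difference per KD, among those well above background on all 4 arrays without overlap. Exceptions are marked. Dlx4, Dlx5, Irx2 and Irx4, neighbours of other described factors, are left without values. None of them was called in a KD against EGFP KD. Members, gene lists and rules were chosen with earlier results of these data known. Alternatives changed the normalization, background correction, floor, filter, probe choice, blocks, weights, variance prior and arrays; leaving out both arrays whose targeted mRNA goes against the label was added after the data were seen. Same-numbered arrays deviated together with correlations from -0.04 to 0.77 (median 0.38, 15 pairs), so they partly varied together. The main fit nevertheless did not take the numbers as pairs, and the replicate block was run as an alternative. Nkx1-1 had no matched probe and was not analysed here. Another 2 genes that fit the naming rule are not reported here and enter no count of the factors, though they stayed in the fits across all genes.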

Additional observations from a re-analysis of the deposited data

Results flagged for a closer look

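Nkx6-3 differed between Chd4 KD and Mbd3 KD, which share the EGFP KD controls, by a log2 difference of -1.24 (adjusted p = 0.017 in limma), both Chd4 KD arrays lying below both Mbd3 KD arrays.

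The remaining results drew attention because both arrays of a KD lay above both EGFP KD arrays and both arrays of another KD lay below them. Nkx6-3 was higher on the arrays labelled Mbd2 KD (0.16) and lower in Dnmt1 KD (-0.31), in Mbd3 KD (-0.61) and in Chd4 KD (-1.85). Of these, Mbd3 KD against Mbd2 KD was tested and not called (-0.76, adjusted p = 0.137 in limma), and the others were not tested. Lhx9 was higher on the arrays labelled Tet1 KD (0.27) and lower on those labelled Mbd2 KD (-0.27). This difference was not tested, and both sets of labels are ones that the targeted mRNA goes against on 1 array. The other Lhx9 probes gave 0.07 and 0.03 in Tet1 KD, and 0.24 and -0.86 in Mbd2 KD, so the probes disagreed.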

How the results depend on the processing

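With 2 arrays a group, slides that hold part of the groups, and probes close to background, few calls were stable. Nkx6-3 in Chd4 KD kept its call in 25 of 26 alternatives, Irx3 in 10 of 25 and Six4 in 8 of 26. The cause of each change was not tested, apart from fits that hold fewer arrays.

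The count of factors called in Chd4 KD against EGFP KD was 3. It was 1 with normexp background correction, without the floor or with the stricter filter on all arrays, 5 with slide as a random block (where 6.70% of all genes were called) or an adjusted p under 0.1, 0 with only the 4 arrays of the comparison, 6 of 13 in the deposited table (where 56.7% of its genes were called), 2 without both arrays that go against their labels, and 1 to 3 with an array left out. With the replicate block it was 3, with Six2 called and Six4 not. Against Mbd3 KD the count was 1, and it was 0 with normexp, without the floor, with the mean of the probes, with only 4 arrays and without both such arrays. It was 2 with quantile normalization, no filter, the replicate block, array weights or every probe tested on its own, 3 of 13 in the deposited table (16.5% of its genes), 4 with slide as a random block or an adjusted p under 0.1, and 0 to 3 with an array left out. In Mbd3 KD the deposited table gave 5 of 13 in place of 0, where 46.0% of its genes were called, and Mbd3 KD against Mbd2 KD gave 1 with slide as a random block. With an array left out, the counts in each KD other than Chd4 KD were 0 to 1, the 1 being Six3 without EGFP KD replicate 2. The replicate block changed no other of these counts.

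Normexp shifted the median of all genes to between -0.32 and -0.20 in the KDs, and the median of the factors to -0.41 in Chd4 KD, -0.29 in Mbd3 KD, -0.37 in Mbd2 KD, -0.40 in Dnmt1 KD and -0.19 in Tet1 KD. In Dnmt1 KD the median of the factors was 0.041 with quantile normalization, 0.065 without the floor or with the stricter filter, 0.088 and 0.075 with slide as a fixed and a random block, and -0.22 to 0.076 with an array left out. In Tet1 KD it was 0.046 with quantile normalization, 0.054 and 0.14 with slide as a fixed and a random block, -0.011 in the deposited table, whose scale is narrower, and 0.019 to 0.48 with an array left out. In Mbd3 KD it was -0.022 with quantile normalization, -0.094 without the floor, -0.023 with the stricter filter, 0.038 and 0 with the slide blocks and -0.25 to 0 with an array left out. The ranges with an array left out were -0.21 to 0.098 in Mbd2 KD and -0.24 to 0.18 in Chd4 KD, and their ends were set by which EGFP KD array remained.

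Irx3 in Chd4 KD changed sign with normexp (-0.51), as did Dlx2 in Dnmt1 KD (-0.31), and Emx2 (-0.50) and Gsx1 (-0.33) in Tet1 KD. Gsx1 also did with slide as a fixed block (-0.0016) and without EGFP KD replicate 1, over a range of -0.080 to 1.46 with an array left out. Pax6 in Dnmt1 KD was 0.021 in the deposited table.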
